A study of Mus musculus with 12 samples.

Results

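Spon1 and Spon2 encode the secreted proteins F-spondin and mindin, and their RNA was measured in 12 mouse brain libraries from 8 mice aged 20 months. The pair makes up 2 of the 41388 genes in the deposited tables. Spon2 was selected on the difference of its RNA level between knockout and wildtype astrocytes in these same data, and Spon1 was added as the other gene of the spondin name. The astrocyte knockout against wildtype values that follow therefore describe both genes and carry no test.

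F-spondin is a matrix protein of the nervous system that was first found in the floor plate of the embryonic spinal cord. It holds a reeler domain, a spondin domain and a row of thrombospondin type 1 repeats, guides axons, and binds the amyloid precursor protein and apolipoprotein E receptors. Mindin is shorter, has a spondin domain and a single thrombospondin repeat but no reeler domain, and is best known outside the brain as an integrin ligand and as a protein that binds microbial surfaces for innate immune cells.

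All 8 mice had the strain Bmal fl/fl; ALDH1L1-CreERT2 in their labels, on a C57BL\6 background, with loxP sites around both alleles of the clock gene Bmal1 (Arntl). Knockout (KO) mice were Cre+ and wildtype (WT) mice were Cre-; every mouse, WT included, was given tamoxifen by gavage when 2 months old, on 5 days, at a daily 2 mg. The Cre is an inducible one under the promoter of Aldh1l1, a gene of astrocytes, so that the presence of Cre and the deletion cannot be told apart in this design. Brain cells were freed with collagenase and cleared of debris. Cells that bound beads against the astrocyte surface antigen ACSA-2 gave the astrocyte libraries (4 KO and 4 WT mice) and unbound cells gave the flowthrough libraries (2 KO and 2 WT). Each flowthrough library shares its mouse with 1 of the astrocyte libraries. A name such as KO 60 stands for the label and the mouse number.

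The libraries held between 38.7 M and 51.6 M counts, where M is 1000000. Levels are given in CPM (counts per 1000000), and 3 counts, taken as the floor, equal 0.0582 to 0.0775 CPM. Arntl RNA did not fall with the KO label: it was 11.2 ± 1.7 CPM in KO and 7.18 ± 1.4 CPM in WT astrocytes (SD, n = 4 each), and 5.04 ± 0.10 and 4.79 ± 0.70 CPM in KO and WT flowthrough (n = 2 each). Counts were per gene, over 20 exon intervals for Arntl, so that loss of a part of the gene could not be checked. KO and WT are used throughout as the names of the labels. KO 73 and WT 78 were the 2 astrocyte libraries with the Xist and Y-linked pattern of females. Each of the 12 astrocyte markers was above the floor in every library, and 12 of 12 were higher in the astrocyte fraction (edgeR quasi-likelihood test, Benjamini-Hochberg adjusted p under 0.05, the rule for every gene called here). Their summed level was 12244 CPM in KO 73 and 17820 to 25335 CPM in the other 7 astrocyte libraries. The astrocyte fraction also held oligodendrocyte RNA, with 24341 to 38424 CPM in KO and 20329 to 26619 CPM in WT summed over 10 markers, and neuron RNA, with 1373 to 3038 CPM in KO and 1781 to 3132 CPM in WT over 10 markers. All 10 neuron markers were called higher in the astrocyte fraction than in the flowthrough (median 1.60 on the log2 scale, against 1.87 for the astrocyte markers). Of the oligodendrocyte markers 5 of 10 were called higher (median 0.99), and of the oligodendrocyte precursor markers 5 of 6 were (median 1.17). Over all genes, 24.8% were called higher in this comparison.

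Spon2 lay on chromosome 5, bases 33213518 to 33218238 of the minus strand (GRCm38, as in the deposited coordinates), with 6 exon intervals and 2237 exonic bases. Spon1 lay on chromosome 7, bases 113765998 to 114043370 of the plus strand, with 16 exon intervals and 8177 exonic bases. In the deposited coordinates 0 other genes overlapped either of them. A GENCODE M21 annotation of the same build listed 2 coding transcripts among 5 for Spon2, and 2 among 2 for Spon1.

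Spon2 RNA was low but above the floor in every WT astrocyte library and abundant in every KO one. It was 122 CPM in KO 60, 135 CPM in KO 62, 77.5 CPM in KO 73 and 122 CPM in KO 132, which is 5164, 5705, 4144 and 5789 reads. The WT astrocyte libraries held 1.13 CPM (WT 56), 0.322 CPM (WT 57), 0.267 CPM (WT 64) and 1.65 CPM (WT 78), from 54, 11, 12 and 70 reads. The groups were far apart: the lowest KO library stood 47.1-fold above the highest WT library. KO libraries differed little among themselves, with a coefficient of variation of 22.1%, whereas WT libraries had one of 79.2% at counts where sampling alone is large. The 95% exact Poisson interval was 0.848 to 1.47 CPM for WT 56, 0.161 to 0.577 CPM for WT 57, 0.138 to 0.466 CPM for WT 64 and 1.28 to 2.08 CPM for WT 78. WT 56 and WT 78 thus lay above WT 57 and WT 64 beyond counting error, which is the error these intervals cover.

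The mean level was 114 ± 25 CPM in KO and 0.841 ± 0.67 CPM in WT astrocytes (SD, n = 4 each). Spon2 was 7.07 ± 0.55 higher in KO on the log2 scale (estimate ± SE, 134-fold), given as a description because this difference chose the gene. In the fit of 8 astrocyte libraries 43 of 18527 genes were called (0.232%; 0.146% higher and 0.0864% lower in KO), 995 (5.37%) had an unadjusted p under 0.05, and 326 genes (1.76%) had every KO library above every WT library. Without KO 73 and WT 78 together the Spon2 difference was 7.74. In bulk RNA, fewer cells with the transcript and less transcript per cell cannot be told apart.

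**Figure D1:**
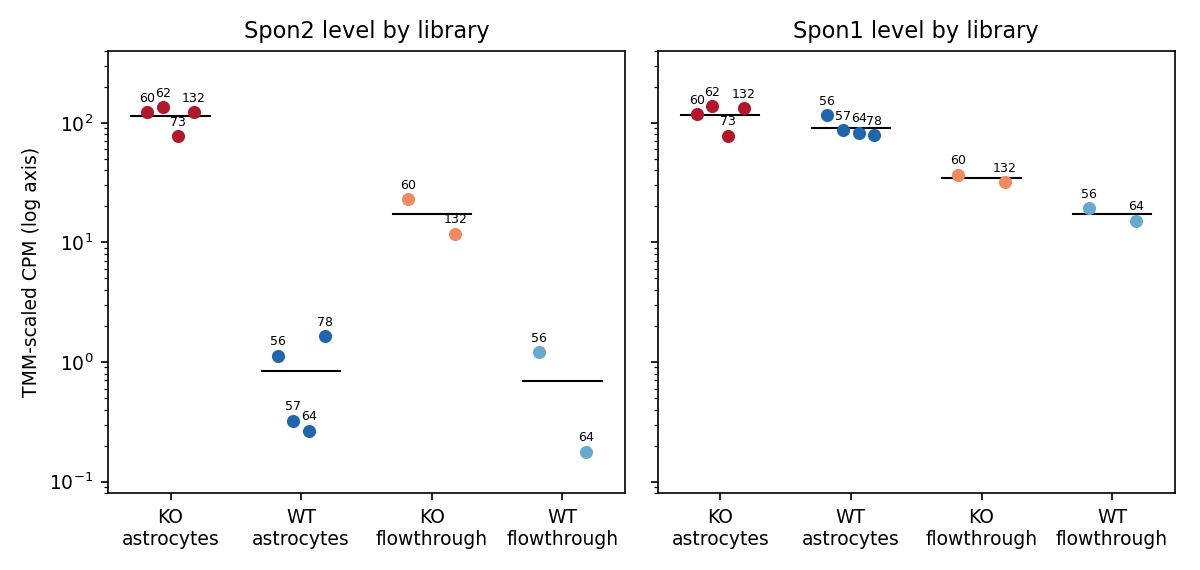
Level of Spon2 (left) and Spon1 (right) in each of the 12 libraries, in CPM scaled by trimmed-mean (TMM) factors on a log axis; points are libraries with their mouse number and bars are group means. Spon2 lies between 77.5 and 135 CPM in KO astrocytes and at or below 1.65 CPM in all WT libraries, while Spon1 overlaps between KO and WT astrocytes.

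Spon1 RNA was present in all 12 libraries and overlapped between KO and WT astrocytes. It was 118 CPM in KO 60, 138 CPM in KO 62, 77.8 CPM in KO 73 and 133 CPM in KO 132. WT astrocytes held 116 CPM (WT 56), 87.0 CPM (WT 57), 82.3 CPM (WT 64) and 78.6 CPM (WT 78). KO 73 was below all 4 WT libraries and the other 3 KO libraries were above all 4. The means were 117 ± 27 and 91.1 ± 17 CPM (SD, n = 4 each), a difference of 0.37 ± 0.20 on the log2 scale (1.29-fold), also given without a test. In the same comparison 10 of 10 oligodendrocyte markers had a higher KO estimate, with a median of 0.78. Of these 10, 5 had an unadjusted p under 0.05 (5.37% of all genes did). Higher KO estimates were also found for 6 of 6 border macrophage (median 0.80), 10 of 10 microglia (0.55), 7 of 7 choroid plexus (0.34) and 6 of 6 oligodendrocyte precursor markers (0.26). Only 3 of 12 astrocyte markers (median -0.23) and 4 of 10 neuron markers (-0.10) had one. The part of these cell types in the spondin values was not tested.

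KO 73, the KO library with the least Spon1 and Spon2, was also the one with the least astrocyte-marker RNA. Per 1000 CPM of summed marker RNA, Spon2 stood at 5.01, 5.33, 6.33 and 5.95 CPM in KO 60, 62, 73 and 132, so that KO 73 was the highest of the 4. The WT astrocyte libraries 56, 57, 64 and 78 held 0.0572, 0.0151, 0.015 and 0.0702 CPM by the same measure. Spon1 stood at 4.84, 5.45, 6.35 and 6.48 CPM in KO 60, 62, 73 and 132 and at 5.9, 4.08, 4.62 and 3.35 CPM in WT 56, 57, 64 and 78. Only Spon2 separated the labels on this scale, and the Spon1 groups overlapped. The summed markers include Gfap, which differed by 1.03 ± 0.36 between KO and WT astrocytes on the log2 scale (edgeR adjusted p = 0.683). The median over the 12 markers was -0.23.

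Per kilobase of exon, the scale on which the spondins can be compared, Spon2 exceeded Spon1 in KO and was far below it in WT. In RPKM (CPM per kilobase of exon), Spon2 was 51.1 ± 11 in KO and 0.376 ± 0.30 in WT astrocytes, and Spon1 was 14.3 ± 3.3 and 11.1 ± 2.1. The RPKM ratio of Spon2 to Spon1 was 3.78, 3.58, 3.64 and 3.36 in KO 60, 62, 73 and 132, a narrow range that also took in KO 73. It was 0.0354, 0.0135, 0.0119 and 0.0766 in WT 56, 57, 64 and 78. By RPKM, Spon2 ranked 1169 of 28094 detected genes in KO astrocytes and 16425 of 27743 in WT astrocytes, and Spon1 ranked 3232 and 3830.

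In the flowthrough, both spondins were again higher in the KO libraries, but neither difference passed the test over all genes. Spon2 was 23.0 CPM in KO 60 and 11.8 CPM in KO 132 (1206 and 655 reads), against 1.21 CPM in WT 56 and 0.178 CPM in WT 64 (67 and 9 reads). The lower KO library was 9.74-fold above the higher WT library. The difference was 4.62 ± 0.88 on the log2 scale (24.7-fold; adjusted p = 0.611, edgeR quasi-likelihood test, 12-library fit). Spon2 had the rank 8 by p among 20997 genes. This fit called 1 gene (0.00476%) and 973 (4.63%) at an unadjusted p under 0.05, and 3588 genes (17.1%) had both KO flowthrough libraries above both WT ones. The Spon2 adjusted p ran from 4.2e-05 to 1 over 21 alternative analyses, and DESeq2 alone gave one below 0.05. With 1 library left out at a time the difference ran from 3.84 (without WT 64) to 6.59 (without WT 56).

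Of the WT mice, 56 and 64 were measured in both fractions, and WT 56 was the higher in each for Spon2. WT 56 held 1.13 CPM in astrocytes and 1.21 CPM in flowthrough, and WT 64 held 0.267 and 0.178 CPM. With 2 mice such an order can repeat by chance. The KO order did not repeat, since KO 60 and KO 132 were level in astrocytes and differed in flowthrough. KO 60 flowthrough also had more astrocyte-marker RNA, 9750 CPM against 4498 CPM in KO 132. It likewise had more oligodendrocyte-marker (29799 against 15337 CPM) and neuron-marker RNA (1299 against 595 CPM). Other sums were lower in KO 60, among them microglia (11549 against 18032 CPM) and choroid plexus (19419 against 23404 CPM). Per 1000 CPM of astrocyte markers, Spon2 was 2.36 (KO 60) and 2.62 CPM (KO 132) in flowthrough, against 0.249 (WT 56) and 0.053 CPM (WT 64). These KO values were below the 5.01 to 6.33 CPM of KO astrocytes. The part of any cell type in the Spon2 flowthrough values was not tested.

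Spon1 was 36.9 CPM in KO 60 and 31.8 CPM in KO 132 flowthrough, against 19.4 CPM in WT 56 and 15.2 CPM in WT 64. The groups did not overlap, but 17.1% of all genes had both KO flowthrough libraries above both WT ones. The Spon1 means were 34.3 ± 3.6 and 17.3 ± 3.0 CPM (SD, n = 2 each). The Spon1 difference was 0.99 ± 0.28 on the log2 scale (1.99-fold, adjusted p = 1 by edgeR). Astrocyte-marker RNA moved with it: 11 of the 12 markers had a higher estimate in KO flowthrough, with a median of 0.44 on the log2 scale. The estimates ran from -0.28 for Sox9 to 2.15 for Gfap, with Slc1a2 at 1.18 and Aldh1l1 at 0.15. The markers summed to 4498 to 9750 CPM in KO and 3358 to 4864 CPM in WT flowthrough. Whether this sum differs by label apart from astrocyte content was not tested. Per 1000 CPM of markers, Spon1 was 3.78 and 7.07 CPM in KO 60 and 132 and 3.98 and 4.52 CPM in WT 56 and 64, and the groups overlapped. Higher estimates in KO flowthrough were also found for 10 of 10 neuron markers (median 0.92), 9 of 9 endothelial markers (0.63) and 6 of 6 oligodendrocyte precursor markers (0.55). Lower estimates were found for 6 of 6 ependymal markers (median -0.95) and 6 of 7 choroid plexus markers (-0.57), whose sums were 19419 to 23404 CPM in KO and 33956 to 40120 CPM in WT flowthrough. The part of these cell types in the flowthrough values was not tested.

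**Figure D2:**
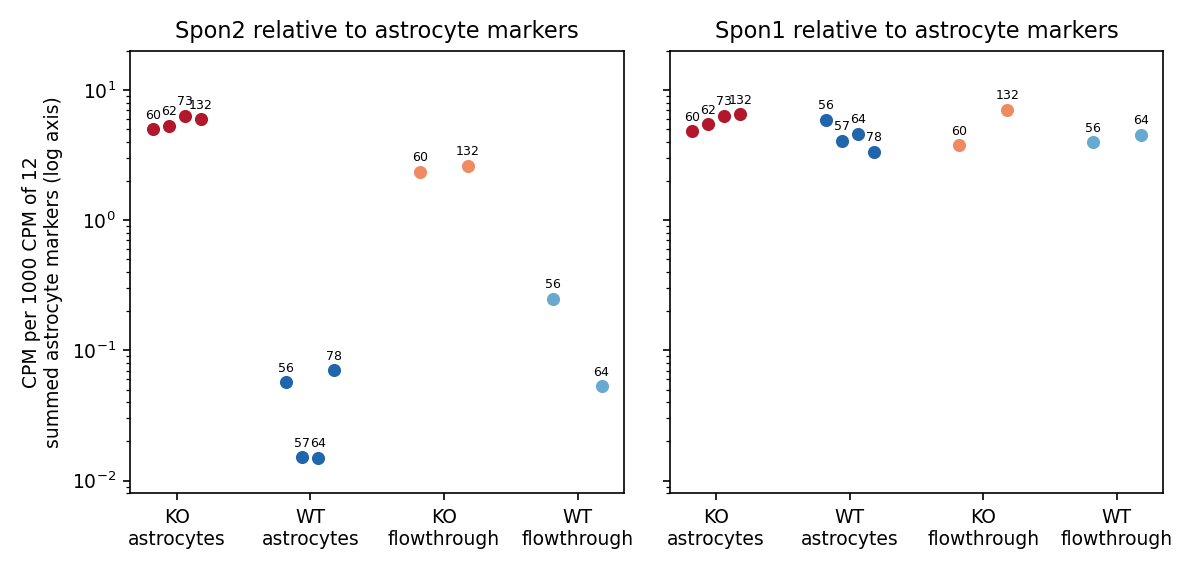
Spon2 (left) and Spon1 (right) in CPM per 1000 CPM of the 12 summed astrocyte markers, on a log axis, for each library by group. The KO libraries lie between 2.36 and 6.33 for Spon2 and every WT library lies at or below 0.249, while the Spon1 values of all groups lie between 3.35 and 7.07.

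Spon1 RNA was higher in the astrocyte fraction than in the flowthrough in both labels. It was 2.08 ± 0.19 higher on the log2 scale (4.23-fold; edgeR adjusted p = 1.71e-05), in a comparison that called 10333 of 20997 genes (49.2%; 24.8% higher and 24.4% lower in astrocytes). Within KO the difference was 1.77 ± 0.26 (adjusted p = 0.0014, 23.3% of genes called) and within WT it was 2.40 ± 0.27 (adjusted p = 0.000253, 37.9% called), by the same fit. All 4 mice measured in both fractions showed the direction: astrocyte CPM was 3.21 and 4.18 times the flowthrough CPM in KO 60 and 132, and 6.01 and 5.42 times in WT 56 and 64. The KO minus WT contrast of these differences was -0.63 ± 0.34. It is given as an estimate only, because it uses the KO against WT astrocyte contrast, which carries no test here for either spondin.

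For Spon2 the fractions lay far apart in the KO mice and close together in the WT mice. Its astrocyte to flowthrough ratio was 5.33 in KO 60 and 10.4 in KO 132, and it was 0.931 in WT 56 and 1.5 in WT 64. On the log2 scale the estimates were 2.72 ± 0.73 in KO and 0.28 ± 0.75 in WT, and the contrast between them was 2.44 ± 0.99. None of these estimates carries a test, since the KO astrocyte libraries chose Spon2. Over all genes 0 contrasts of this kind were called by edgeR, and 828 had an unadjusted p under 0.05.

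**Figure D3:**
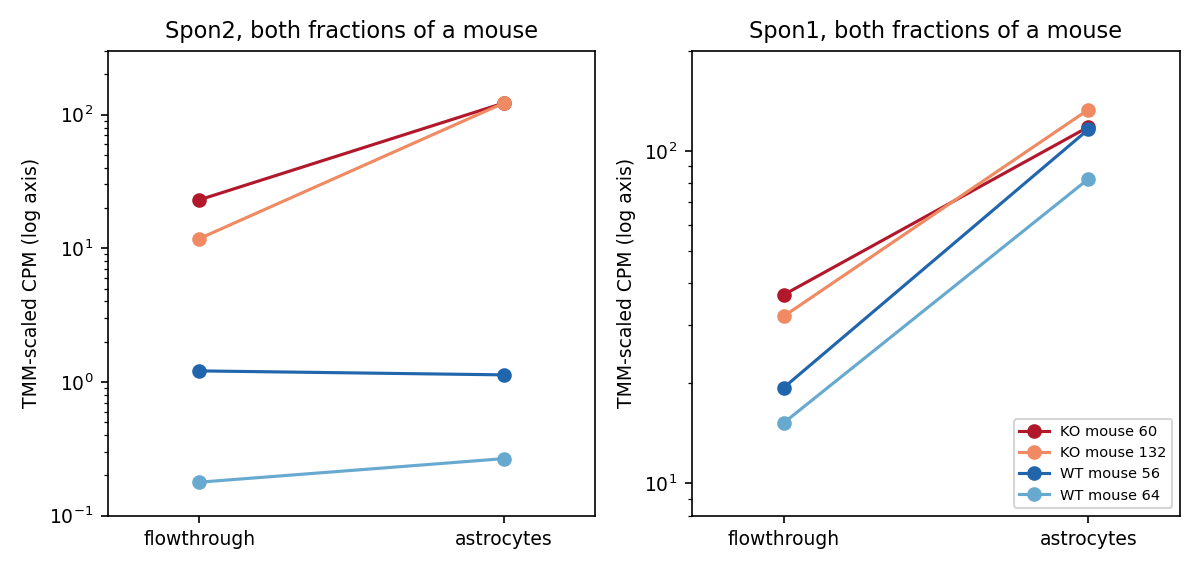
Spon2 (left) and Spon1 (right) in the astrocyte and flowthrough libraries of the 4 mice measured in both, in CPM on a log axis; each line joins the libraries of 1 mouse. Spon1 is higher in astrocytes in all 4 mice, by 3.21 to 6.01 times, and Spon2 is 5.33 and 10.4 times as high in the KO mice and 0.931 and 1.5 times in the WT mice.

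The order of the Spon2 levels was KO astrocytes (114 ± 25 CPM), KO flowthrough (17.4 ± 7.9 CPM), WT astrocytes (0.841 ± 0.67 CPM) and WT flowthrough (0.695 ± 0.73 CPM). The lowest KO astrocyte library was 3.38 times the highest KO flowthrough library, and the lowest KO flowthrough library was 7.17 times the highest WT astrocyte library. The WT groups overlapped. The Spon1 order was KO astrocytes (117 ± 27 CPM), WT astrocytes (91.1 ± 17 CPM), KO flowthrough (34.3 ± 3.6 CPM) and WT flowthrough (17.3 ± 3.0 CPM). For Spon1 the astrocyte groups overlapped, and the lowest WT astrocyte library was 2.13 times the highest KO flowthrough library.

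Thrombospondin type 1 repeat (TSR) proteins share the spondins' folded repeat, and 37 genes besides the spondins were listed. Among these 39 genes Spon2 ranked 1st by RPKM in KO astrocytes and 27th in WT astrocytes, and 3rd and 24th in KO and WT flowthrough. Spon1 held the ranks 2 and 2 in KO and WT astrocytes and 7 and 9 in KO and WT flowthrough. Of 34 listed genes tested in astrocytes, 14 had a higher and 20 a lower KO estimate, and the median was -0.12 on the log2 scale against 0.00 over all genes. Of the 34, 3 had an unadjusted p under 0.05 (5.37% of all genes did) and 1 was called (2.94%, against 0.232% of all genes). The called gene was Sema5b, a transmembrane semaphorin with TSRs that guides axons. Sema5b was 8.81, 6.87, 5.50 and 7.71 CPM in KO 60, 62, 73 and 132. It was 1.88, 1.70, 1.94 and 2.54 CPM in WT 56, 57, 64 and 78. Every KO library was above every WT library, as was so for 1.76% of all genes. It rose by 1.85 ± 0.22 in KO astrocytes on the log2 scale (edgeR adjusted p = 0.0122). The call was lost without KO 132 (adjusted p = 0.0665), WT 56 (0.0634), WT 57 (0.0659) or WT 64 (0.0527).

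In flowthrough 0 of 36 tested TSR genes were called by edgeR (0.00476% of all genes were). An unadjusted p under 0.05 was found for 3 (4.63% of all genes had one), and the median was -0.02 against 0.04 over all genes. Sema5b was 2.48 and 1.21 CPM in KO 60 and 132 and 0.633 and 0.791 CPM in WT 56 and 64, a difference of 1.37 ± 0.38 (adjusted p = 1). Its relative Sema5a differed by 0.98 ± 0.33 (adjusted p = 1). Between fractions 11 TSR genes were higher and 8 lower in astrocytes (52.8%, against 49.2% of all genes). Higher were the adhesion receptors Adgrb3 (1.92 ± 0.20) and Adgrb1 (1.75 ± 0.19), Sema5b (1.73 ± 0.25) and Thsd7a (0.84 ± 0.16), with Spon1 above all 4 in log2 difference. Lower were Thbs1 (-2.63 ± 0.46), which encodes thrombospondin 1, the complement regulator properdin Cfp (-2.48 ± 0.49), the basement membrane gene Hmcn1 (-1.89 ± 0.32) and Ism1 (-1.65 ± 0.28).

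The partners of F-spondin form a list of 13 genes of the amyloid precursor family, apolipoprotein E receptors and reelin signalling. In astrocytes 0 of 13 were called between KO and WT by edgeR (0.232% of all genes were). Higher in KO were 8 estimates and lower were 5, with a median of 0.03. An unadjusted p under 0.05 was found for 1 gene (5.37% of all genes had one). That gene was Lrp4, a low-density lipoprotein receptor family member, at 217 ± 30 CPM in KO and 163 ± 3.7 CPM in WT astrocytes (0.42 ± 0.12, adjusted p = 0.459). Dab1, the adaptor of the reelin receptors, differed by -0.41 ± 0.21 (adjusted p = 0.971). In flowthrough 0 were called by edgeR (0.00476% of all genes were) and 1 had an unadjusted p under 0.05 (4.63% of all genes did). This was again Lrp4, at 90.6 ± 21 CPM in KO and 51.2 ± 1.1 CPM in WT (0.82 ± 0.19, adjusted p = 1 by edgeR and 0.0478 with DESeq2). The median was 0.20, against 0.04 over all genes, and Bace1, which encodes the beta-secretase that cleaves the amyloid precursor protein, differed by 0.35 ± 0.16. Between fractions 7 of 13 were higher in astrocytes (53.8%, against 24.8% of all genes) and 0 lower, with Lrp4 (1.47 ± 0.12), Apbb1 (1.15 ± 0.20), Aplp1 (1.10 ± 0.16) and Bace1 (0.60 ± 0.10) as the 4 with the smallest p. The neuron markers, 10 of 10 higher in this fraction, moved the same way as the astrocyte markers. So did the oligodendrocyte markers (5 of 10 called higher) and the oligodendrocyte precursor markers (5 of 6). The part of these cell types in the list's values was not tested.

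The genes listed as partners of mindin were 11 integrin and innate immune signalling genes, and most had less RNA in the astrocyte fraction. Between fractions 10 of 11 were lower in astrocytes (90.9%, against 24.4% of all genes), with a median of -2.44. They included Itgam and Itgb2, the subunits of the CD11b/CD18 integrin, at -3.47 ± 0.29 and -3.92 ± 0.37, the GTPase gene Rac2 at -3.93 ± 0.34 and the Toll-like receptor adaptor Myd88 at -2.03 ± 0.18. Itgb1 was lower by less (-0.33 ± 0.10), and Rac1 was the gene not called (0.07 ± 0.14). Itgam was 31.6 ± 19 CPM in KO and 21.9 ± 3.5 CPM in WT astrocytes, and 303 ± 86 and 280 ± 32 CPM in KO and WT flowthrough. The 10 microglia markers showed the same direction, 10 of 10 lower in astrocytes with a median of -3.55, and their part in the list's values was not tested. Spon2 in KO mice was thus higher in the fraction that held less of this list's RNA.

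Between KO and WT, 0 of 11 mindin partners were called by edgeR in either fraction, and 0 had an unadjusted p under 0.05 in either. Over all genes 0.232% were called in astrocytes and 0.00476% in flowthrough, and 5.37% and 4.63% had an unadjusted p under 0.05. For 11 genes a count of 0 is near these shares and says little about the list. In astrocytes 10 estimates were above 0 and the median was 0.27, beside 10 of 10 microglia markers above 0 with a median of 0.55. Summed microglia markers were 2986 CPM in KO 73, 634 to 1139 CPM in the other KO astrocyte libraries and 616 to 1251 CPM in WT. Itgb1, which encodes the shared beta-1 integrin subunit, differed by 0.27 ± 0.13 (adjusted p = 0.967) and Itgb2 by 0.73 ± 0.44 (adjusted p = 0.976). Without KO 73 the Itgb2 difference was 0.41, and without KO 73 and WT 78 it was 0.22. In flowthrough 5 were above and 6 below 0, with a median of -0.11, and Myd88 (-0.21 ± 0.31) and Itgb1 (0.11 ± 0.17) had the smallest p. The sign of Myd88 turned without KO 60 or without WT 64 flowthrough.

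Matricellular and matrix proteins made a list of 25 genes, which shared Thbs1 and Thbs2 with the TSR list. In astrocytes 0 of 25 were called between KO and WT by edgeR (0.232% of all genes were) and 8 had an unadjusted p under 0.05 (5.37% of all genes did), with 14 estimates above 0, 11 below and a median of 0.05. The proteoglycan core protein genes Bcan (85.6 ± 13 CPM in KO, 152 ± 19 CPM in WT) and Vcan had the smallest p, at -0.82 ± 0.14 (adjusted p = 0.0727) and -0.98 ± 0.24 (adjusted p = 0.296). In flowthrough 0 were called by edgeR (0.00476% of all genes were) and 2 had an unadjusted p under 0.05 (4.63% of all genes did). These were the proteoglycan genes Ncan (1.12 ± 0.34) and Spock2 (0.60 ± 0.22), both with adjusted p = 1 by edgeR. Between fractions 12 were higher and 4 lower in astrocytes (64.0%, against 49.2%). Bcan (2.26 ± 0.25), Ncan (1.84 ± 0.22), Sparcl1 (1.80 ± 0.22) and Spock1 (1.44 ± 0.22) were higher, beside Spon1 at 2.08. Thbs1, Nid2 (-2.04 ± 0.29), Spp1 (-1.54 ± 0.47) and Fn1 (-1.28 ± 0.33) were lower.

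**Figure D4:**
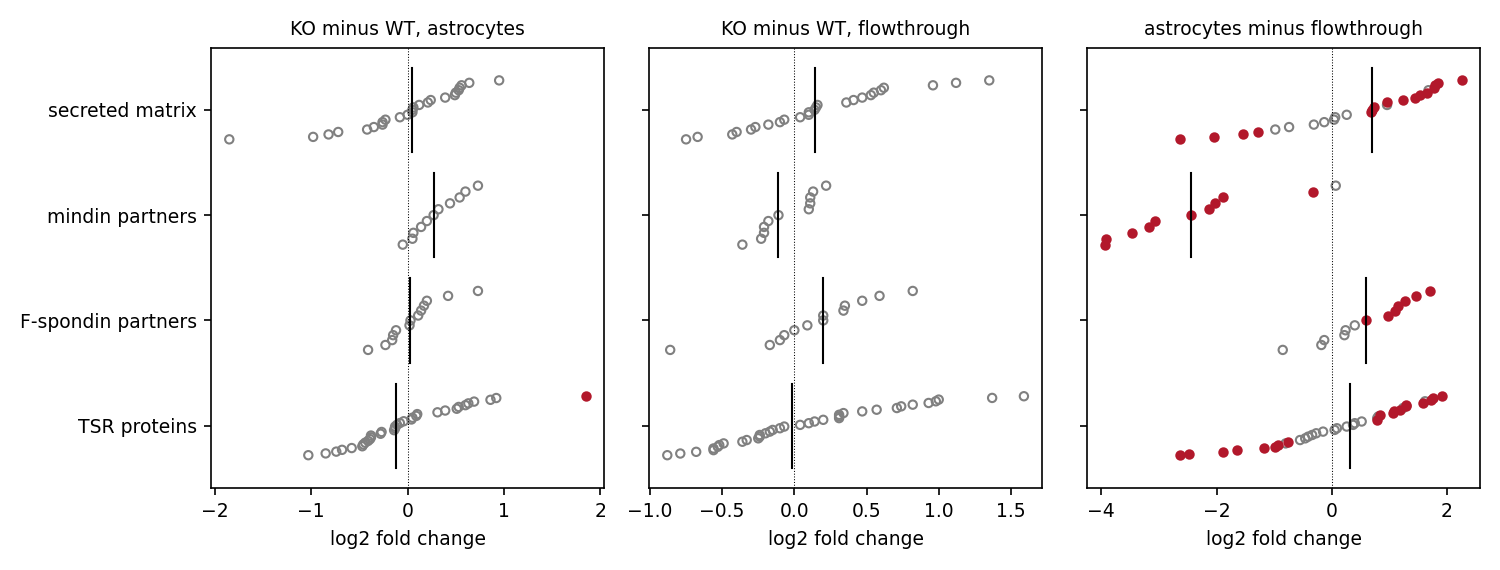
Log2 fold change of each tested member of the 4 lists in 3 comparisons (KO against WT astrocytes, KO against WT flowthrough, astrocytes against flowthrough); points are genes, filled red where the edgeR adjusted p is under 0.05, and black lines are list medians. Sema5b at 1.85 is the called gene between KO and WT, and the mindin partners lie lowest between fractions, with a median of -2.44.

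Genes beside Spon2 and Spon1 were examined for whether the difference extended along the chromosome. The nearest 3 named genes on each side of Spon2 were tested in astrocytes, and 0 of 6 were called by edgeR. Only 0.232% of all genes were called in this fit, so that count says little by itself. The 6 estimates ran from -0.29 ± 0.39 for Rpl35a-ps5, 137 kb away, to 0.55 ± 0.37 for Slc5a1, 50.6 kb away. Ctbp1, the nearest at 29.5 kb, differed by -0.11 ± 0.18, and Ywhah, Maea and Uvssa by -0.06 ± 0.17, 0.21 ± 0.11 and 0.18 ± 0.30. In flowthrough the 6 ran from -0.06 to 0.25 on the log2 scale. The Spon2 difference of 7.07 was therefore not seen in its tested neighbours.

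Spon1 lies on the same chromosome as Arntl, the floxed gene (bases 113207465 to 113314122), 452 kb beyond its end. Of its 6 nearest named genes 4 were tested and 0 were called by edgeR in astrocytes, where 0.232% of all genes were called. Rras2, 3.42 kb away, differed by 0.31 ± 0.25, and Far1, Copb1 and Psma1 by 0.14 ± 0.14, 0.14 ± 0.21 and 0.09 ± 0.11. Far1os and Pth had too few reads for the test. In flowthrough the 4 ran from -0.11 to 0.22.

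**Figure D5:**
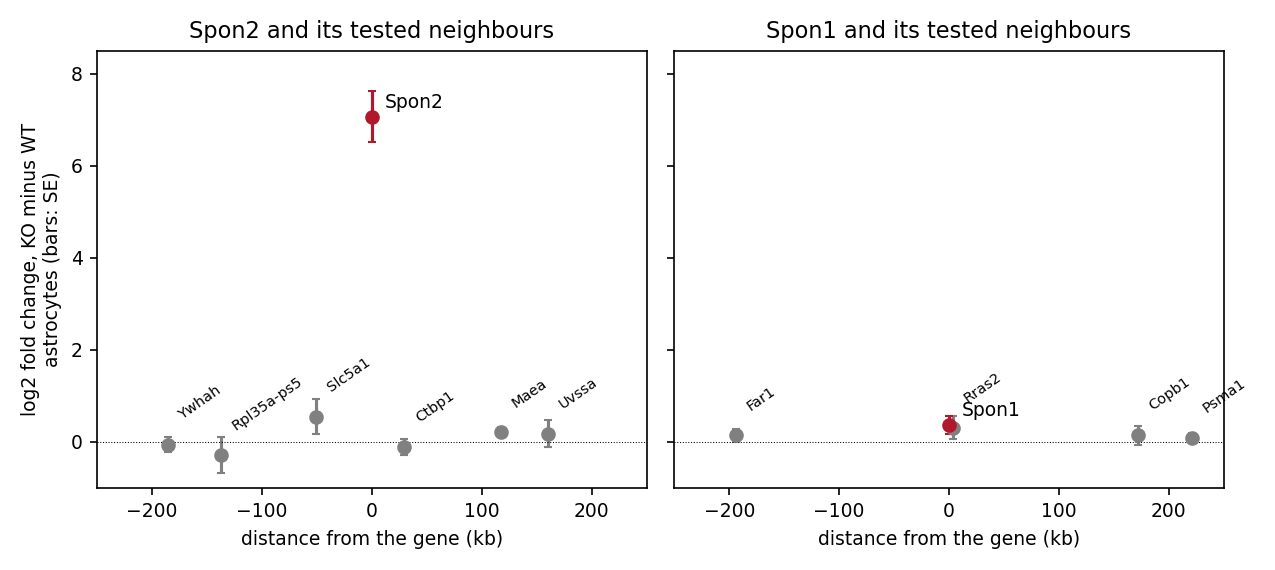
Log2 fold change of KO against WT astrocytes (points, with bars of 1 SE) for Spon2 (left) and Spon1 (right) and their tested neighbours, against distance in kb from the gene. Spon2 stands at 7.07 while its 6 neighbours lie between -0.29 and 0.55; the 4 neighbours of Spon1 lie between 0.09 and 0.31.

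The genes whose levels followed each spondin most closely were ranked by Pearson's r of log2 CPM over the 12 libraries, among 12659 genes, as a description that also takes in what libraries of a fraction or a mouse share. For Spon2 the first was Hebp2 (r = 0.975), a heme-binding protein gene, at 73.6 ± 25 CPM in KO and 6.29 ± 0.67 CPM in WT astrocytes and 29.7 ± 17 and 5.64 ± 0.93 CPM in KO and WT flowthrough. Fam122b (r = 0.961), the neutrophil chemokine gene Cxcl5 (0.939), Ccdc47 (0.937) and Nr2c2ap (0.933) followed. Fam122b was 12.3 ± 2.4 and 4.89 ± 0.61 CPM in KO and WT astrocytes and 8.34 ± 1.3 and 4.55 ± 1.1 CPM in KO and WT flowthrough. Cxcl5 was 38.0 ± 3.0 CPM in KO and 1.72 ± 0.38 CPM in WT astrocytes, and 9.33 ± 4.3 and 0.418 ± 0.08 CPM in KO and WT flowthrough. Ccdc47 was 154 and 130 CPM in KO and WT astrocytes and 145 and 135 CPM in KO and WT flowthrough. Nr2c2ap was 3.43 and 2.18 CPM in KO and WT astrocytes and 3.30 and 2.25 CPM in KO and WT flowthrough. All of these genes had the KO mean above the WT mean in each fraction. Since they were chosen by their r with Spon2, that order follows from the choice and is no separate result.

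For Spon1 the 5 were Ednrb (r = 0.988), the endothelin B receptor of astrocytes, Gdpd2 (0.987), Trib2 (0.986), Olfm2 (0.985) and Atp13a4 (0.981). Ednrb means were 562 CPM in KO and 428 CPM in WT astrocytes and 164 and 97.2 CPM in KO and WT flowthrough. This is the group order of Spon1, which follows from choosing genes by their r with it. Without KO 73 and WT 78, 4 of the 5 genes nearest to Spon1 and 3 of the 5 nearest to Spon2 were again among the nearest 5. By Spearman's correlation 1 and 3 of the 5 were.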

How the data were processed

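RNA was amplified with a SMARTer kit, per the labels' protocols. Each library came as 1 deposited table of 41388 genes which, per the file headers, gives exon coordinates, exon length, raw read counts, CPM and RPKM; 40254 identifiers matched a symbol. The deposited CPM and RPKM values equal the deposited counts per total count, and per kilobase of exon, within 5.1e-11 and 9.1e-11, and served only for this check. The build was GRCm38, and featureCounts 1.4.6-p5, STAR 2.5.1a, Subread and bcl2fastq are named in the submitters' processing notes. What each did, whether strand was used, how reads with several hits were counted and which annotation release was taken is not stated there, which leaves near-identical, overlapping and antisense genes uncertain. No molecular identifiers are named, so intervals and floors cover counting error only.

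Counts were tested with edgeR 4.0.16 (R 4.3.3; glmQLFit and glmQLFTest, two-sided, TMM, filterByExpr) and Benjamini-Hochberg adjustment over all genes in the fit. KO against WT astrocytes used 8 libraries (18527 genes); flowthrough, fraction and interaction contrasts used 12 libraries with 4 group means (20997 genes), which pools the spread. Levels are CPM with TMM factors of all 12 libraries; RPKM is that value per kilobase. The mouse number pairs astrocytes with flowthrough in 4 animals, whose libraries' deviations from the group means correlated at 0.155 (mouse 56), 0.352 (60), 0.251 (64) and -0.00664 (132). In the 8-library fit each library is another mouse; the 12-library fit counts both libraries of a mouse as independent, so its p-values do not measure the spread between mice alone. Scripts were tested on simulated data.

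The members and lists were chosen with earlier results of these data known, and no list was tested as a set. Named genes are Spon1, Spon2 and Arntl; of each list the called members (up to 4 a direction by smallest p), otherwise up to 2 with the smallest p; the 3 nearest named genes on each side; and the 5 genes most correlated with each spondin, among genes that averaged 1 or more in log2 CPM and have no clone name. Alternatives were RLE or library size scaling, other filters, DESeq2 1.42.0, limma-voom (limma 3.58.1), other sets of libraries and the mouse as a block.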

Additional observations from a re-analysis of the deposited data

Results flagged for a closer look

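Neither spondin had a library far from the rest of its group by Dixon's criterion, which was applied to the 2 astrocyte groups (n = 4 each) for 50 genes named in the text. Of 100 group and gene combinations, 10 had such a library, where chance gives about 5.0 (1 in 20). Values are CPM.

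In 5 of the 10 it was KO 73, which among KO astrocyte libraries also had the least astrocyte-marker RNA and the most of the microglia (2986 against 634 to 1139), border macrophage (279 against 38.2 to 80.9), choroid plexus (9371 against 1820 to 4819) and ependymal (762 against 94.4 to 224) marker sums: Adgrb3 was 10.4 (14.9 to 15.5 in the other KO astrocyte libraries), Cfp 19.5 (2.70 to 4.97), Nid2 7.61 (3.55 to 4.12), Spp1 102 (14.2 to 23.9) and Far1 50.8 (35.4 to 37.8). In KO 60 Ctbp1 was 59.3 (39.6 to 42.6). Among WT astrocyte libraries, Fn1 was 66.3 in WT 64 (19.3 to 24.4), Maea 69.2 in WT 56 (55.7 to 56.6), Atp13a4 72.7 in WT 56 (43.2 to 47.0) and Nr2c2ap 2.59 in WT 78 (2.03 to 2.07).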

How the results depend on the processing

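Over 81 results, 1493 values were recomputed under an alternative, and 1454 held. A tested value held when it kept its direction and its side of the threshold, a count when it stayed within 1.5 times, and a value with no test when it moved by less than 1 SD between replicates, which let small differences of genes beside the spondins change sign (Copb1 ran from -0.17 to 0.24 and Uvssa from -0.24 to 0.36; Ctbp1, Ywhah and Rpl35a-ps5 also changed sign). The Spon2 difference between KO and WT astrocytes ran from 6.77 to 7.74 on the log2 scale and that of Spon1 from 0.27 to 0.51. In flowthrough Spon1 ran from 0.83 to 1.18 with an adjusted p of 0.343 to 1. Spon2 was 4.64 with DESeq2 (adjusted p = 4.2e-05), and with the mouse as a random replicate block it was 4.89 (limma-voom adjusted p = 0.206). Spon1 between fractions ran from 1.93 to 2.19, with 2.18 (edgeR adjusted p = 2.17e-05) with the mouse as a fixed replicate block. Spon2 between fractions in KO ran from 2.32 to 3.26 with 1 library left out. The replicate block changed no spondin call in these comparisons.

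The number of genes called between KO and WT astrocytes (43; 27 higher and 16 lower) was 28 with library size scaling (21 higher, 7 lower), 184 with DESeq2 (90 higher, 94 lower) and 12 to 37 with 1 library left out (12 without KO 132, 37 without KO 73). Between KO and WT flowthrough it was 1 in the main analysis, 22 with DESeq2, 0 with limma-voom, with the 4 flowthrough libraries alone or with the random replicate block, and 0 to 5 with 1 library left out. Myd88 in flowthrough ran from -0.61 to 0.16 with 1 library left out, at 0.10 without KO 60 and 0.16 without WT 64. The cause of these changes was not tested. With 9 to 70 reads in a WT library, the size of a Spon2 ratio to WT is limited by depth and by the spread between WT mice.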
